A study of Mus musculus with 9 samples.

Results

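Dio3, the thyroid hormone-inactivating deiodinase, and 9 other imprinted genes tied to growth were followed in 4T1 tumors from mice on a low-fat or a high-fat diet and from high-fat diet mice given EC359. The 10 members, of 22609 genes listed, were found by symbol as Dio3, Dlk1, Meg3, H19, Igf2, Peg3, Mest, Cdkn1c, Plagl1, and Grb10. Dio3 is among them because its counts were low with EC359, so its values are given as a description without a test. The remaining members were picked by name with earlier results of these data known.

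4T1 is a mouse mammary carcinoma line used as a model of triple-negative breast cancer (TNBC), and here it was grown orthotopically in BALB/c mice. Each group had 3 libraries. The low-fat diet (LFD) group ate a diet with 10 kcal% fat and received the vehicle, hydroxy propyl cellulose. The high-fat diet (HFD) group ate a diet with 60 kcal% fat and received the same vehicle. The HFD + EC359 group ate the 60 kcal% fat diet and received the LIFR inhibitor EC359 intraperitoneally at 5 mg/kg on 5 days per week. All mice had been on their diet for 6 weeks before cell injection and stayed on it. The ages of the mice are not given in the labels, which also do not state whether the 3 libraries of a group came from separate mice, so p-values measure the spread between libraries. Between 2 libraries of a group, mean chi-square per gene was 1.36 to 1.57, but 2.46 and 3.00 for pairs with LFD replicate 1. Counting error alone gives about 1. Whether this spread is that of separate tumors was not tested. Bulk tumor RNA holds 4T1 cells together with host stroma, vessels, and immune cells.

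The libraries held 5085268 to 9750959 counts of read pairs, with the LFD libraries the shallowest. Levels are CPM, counts scaled to library size with TMM factors, and 3 counts, the limit that a count of 0 allows, equal 0.308 to 0.59 CPM depending on the library. Intervals and this limit cover counting error only. Summed CPM of 10 fibroblast markers ran from 7815 to 9266 in LFD, 13566 to 14315 in HFD, and 4019 to 4126 in HFD + EC359. Most of this sum was Col1a1, Col1a2, and Col3a1, at 6862.5, 3259, and 3008 CPM in HFD. The 8 endothelial markers summed to 244 to 249, 422 to 455, and 338 to 354 CPM in the same order, and the 10 simple epithelium markers to 1130 to 1153, 710 to 717, and 772 to 805 CPM. Krt8 and Krt18 made up most of the epithelium sum, at 408 and 292 CPM in HFD. Their log2 fold changes were -0.55 and -0.73 with HFD, then 0.12 and 0.05 (Krt18 not called) with EC359. Among the 6 tested epithelium markers, Epcam, Cdh1, Cldn4, and Esrp1 moved further, by -2.22 to -2.85 with HFD and 1.58 to 1.92 with EC359. Keratin-rich epidermis markers, 9 of 10 of which were listed, summed to 1136 to 1304, 184 to 198, and 552 to 562 CPM. Krt14 and Krt5 made up most of the LFD sum, at 761 and 252 CPM. With HFD, 7 of the 9 fell and Krt10 and Ivl were not called, beside 51.8% of all tested genes called.

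Imprinted genes are transcribed mainly from 1 parental allele, and many of them set the growth of the embryo and placenta. Paternally expressed members such as Igf2, Dlk1, Peg3, Mest, Plagl1, and Dio3 and maternally expressed members such as H19, Meg3, and Cdkn1c often lie side by side, under shared control regions. Grb10 is expressed from the maternal allele in most tissues. The counts do not separate the alleles.

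In the files' build mm9, the Dlk1-Dio3 domain spanned 828 kb of chromosome 12, from Dlk1 at chr12:110691033-110701546 through Meg3 at chr12:110779206-110809939 to Dio3 at chr12:111517440-111519307, each on the plus strand. The H19 and Igf2 pair lay on the minus strand of chromosome 7 at chr7:149761437-149764051 and chr7:149836673-149846940, 72.6 kb apart, with Cdkn1c in the same domain at chr7:150644244-150646955. Peg3 was at chr7:6658671-6683130, Mest at chr6:30688063-30698457, Plagl1 at chr10:12810594-12851501, and Grb10 at chr11:11830502-11937423.

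RefSeq promoter sequences of build GRCm38.p6, from 250 bases before to 50 bases after a start site, matched 8 of the 10 members. Those of Dio3, Dlk1, and the first start site of Meg3 are shown because these genes mark the ends and the maternal transcript of the domain described first. Their coordinates in that build are chr12:110278980-110279279, chr12:109452573-109452872, and chr12:109540746-109541045, all on the plus strand. Capitals mark the letters TATAAA or TGACGTCA on either strand.
Dio3: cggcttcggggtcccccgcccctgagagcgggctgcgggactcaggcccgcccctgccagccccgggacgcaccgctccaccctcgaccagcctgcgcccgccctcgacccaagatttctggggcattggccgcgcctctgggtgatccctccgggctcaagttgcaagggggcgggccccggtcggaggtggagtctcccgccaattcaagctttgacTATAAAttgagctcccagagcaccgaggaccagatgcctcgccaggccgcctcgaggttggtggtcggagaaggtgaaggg
Dlk1: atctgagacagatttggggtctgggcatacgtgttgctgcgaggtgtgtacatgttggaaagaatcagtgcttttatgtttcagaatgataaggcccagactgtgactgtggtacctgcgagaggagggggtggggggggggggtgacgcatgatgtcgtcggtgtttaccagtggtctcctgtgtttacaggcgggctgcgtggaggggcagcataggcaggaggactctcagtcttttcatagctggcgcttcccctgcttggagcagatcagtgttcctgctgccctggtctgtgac
Meg3: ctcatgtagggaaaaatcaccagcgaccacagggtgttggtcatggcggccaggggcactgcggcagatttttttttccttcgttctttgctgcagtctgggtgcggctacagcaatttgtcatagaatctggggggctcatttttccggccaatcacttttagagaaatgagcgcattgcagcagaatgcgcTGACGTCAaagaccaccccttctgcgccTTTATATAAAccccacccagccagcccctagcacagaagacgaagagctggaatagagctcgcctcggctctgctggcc
The Dio3 promoter held TATAAA 31 bases before the start site, and the Meg3 promoter held it as an overlapping pair, with a first match 29 bases before the start site, and the CRE letters TGACGTCA 57 bases before it. TGACGTCA also occurred in the Peg3 promoter, 178 bases before the start. Of 32544 mouse promoters, 13.6% held TATAAA and 1.80% held TGACGTCA. The other motif searched, the STAT letters TTCNNNGAA, was in 8.33% of all promoters and in 0 of the 15 windows of the members. The motifs were chosen after the counts were known, and their presence or absence in these windows says nothing about binding. The Dio3 window held 25 CpG dinucleotides, the Dlk1 window 9, and the first Meg3 window 13, against a median of 7 over all promoters.

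Dio3 encodes type 3 deiodinase, which inactivates thyroid hormone and is abundant in fetal tissue and placenta. Dio3 had 4, 9, and 3 counts in the LFD libraries, 13, 11, and 11 in HFD, and 2, 1, and 2 in HFD + EC359. These equal 0.919 ± 0.45 CPM (SD, n = 3) in LFD, 1.52 ± 0.102 in HFD, and 0.185 ± 0.0661 in HFD + EC359. Every HFD library lay above every LFD and EC359 library, and no EC359 library held more than 2 counts. The ratio of summed counts, scaled to depth, was 8.29 for HFD over HFD + EC359, with a 95% counting interval of 3.23 to 27.1, and 5.12 (1.79 to 17.9) for LFD over HFD + EC359. HFD over LFD gave 1.62 with an interval of 0.872 to 3.13, which includes 1. Dio3 was chosen for its low counts with EC359, so these intervals on summed counts describe counting error and are not tests. In bulk tumors, fewer cells that express a gene and less RNA per cell cannot be told apart, for Dio3 and for every gene that follows.

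**Figure D1:**
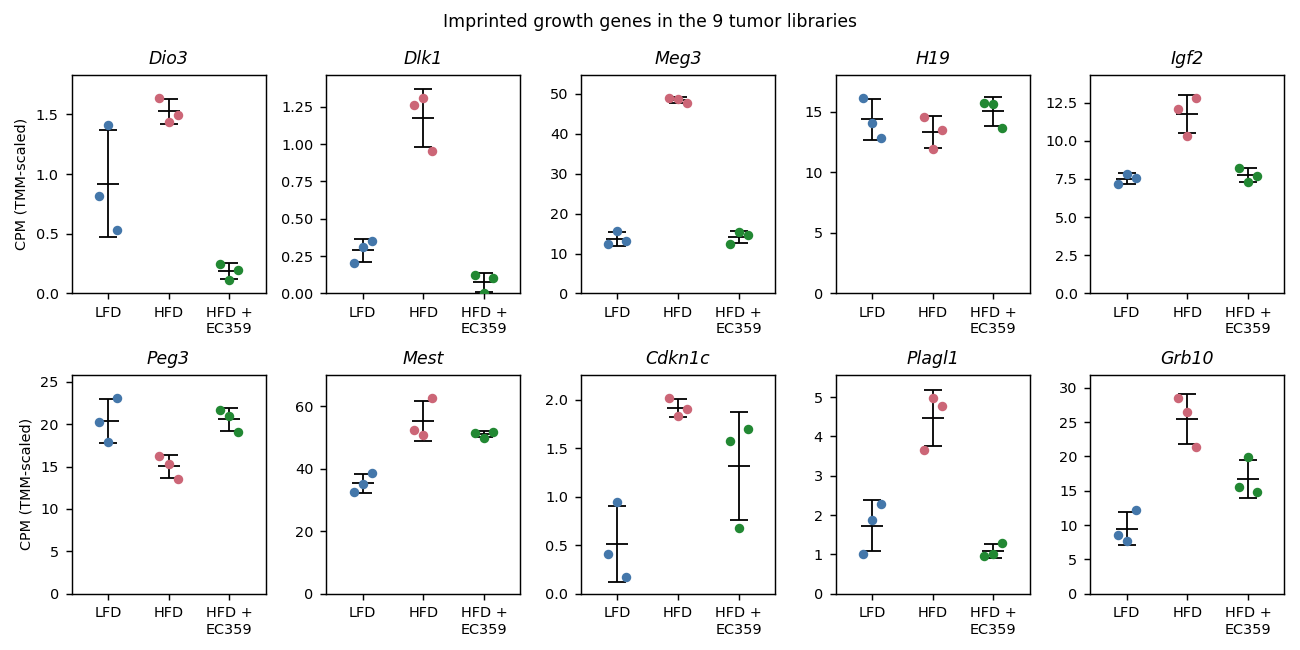
Levels of the 10 members in CPM (linear axis from 0) in each of the 3 LFD, 3 HFD, and 3 HFD + EC359 libraries, with points for libraries and bars for the mean ± SD. Meg3 sits at 47.6 to 49 CPM in HFD against 12.3 to 15.5 in the other libraries, while H19 overlaps across all groups.

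At the far end of the domain, Dlk1 encodes a transmembrane protein with EGF-like repeats that holds back adipocyte differentiation. Its counts were 1, 2, and 2 in LFD, 10, 10, and 7 in HFD, and 1, 0, and 1 in HFD + EC359. The HFD libraries did not overlap with the others. The scaled ratio of summed counts was 3.99 (1.52 to 13.3) for HFD over LFD and 15.98 (4.02 to 139) for HFD over HFD + EC359. Dlk1 did not pass the filter on low counts, so it has no model-based test and is not among the 8 tested members counted below.

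Meg3 is a long noncoding RNA made from the maternal allele of the same domain, and growth-restraining activity has been described for it. Its 3 LFD libraries held 12.3, 15.5, and 13.2 CPM, its HFD libraries 49.0, 48.7, and 47.6 CPM, and its HFD + EC359 libraries 12.4, 15.4, and 14.6 CPM. HFD stood apart from both other groups, and LFD and HFD + EC359 overlapped. Meg3 rose by a log2 fold change of 1.81 (SE 0.106, adjusted p = 1.72e-15) from LFD to HFD, a 3.51-fold difference. With EC359 it fell by 1.77 on the log2 scale (SE 0.0948, adjusted p = 2.15e-16) relative to HFD. HFD + EC359 against LFD gave 0.04 (SE 0.126, adjusted p = 0.8).

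Further maternal transcripts of the domain were also higher in HFD than in both other groups, and differences between them were not tested. Rian, a long noncoding host of small nucleolar RNAs, held 4.09, 4.86, and 3.70 CPM in LFD, 15.997, 17.01, and 17.02 CPM in HFD, and 3.76, 5.52, and 5.09 CPM in HFD + EC359. Its log2 fold change was 1.97 (SE 0.173, adjusted p = 3.21e-11) for HFD against LFD and -1.79 (SE 0.149, adjusted p = 2.13e-11) for HFD + EC359 against HFD. The transcript 6430411K18Rik, on the strand opposite to Rtl1, had 2, 0, and 2 counts in LFD, 11, 18, and 13 in HFD, and 3, 7, and 2 in HFD + EC359. Mirg, which hosts microRNAs, had 0, 2, and 4 counts in LFD, 10, 12, and 6 in HFD, and 2, 3, and 0 in HFD + EC359. For both, HFD lay above the other groups without overlap. Scaled ratios of HFD over LFD were 7.76 (2.82 to 29.8) for 6430411K18Rik and 3.45 (1.40 to 10.2) for Mirg, beside 3.51 (3.05 to 4.06) for Meg3. In the fit, 6430411K18Rik rose by 2.87 on the log2 scale with HFD (adjusted p = 0.000341), or by 2.22 without LFD replicate 2, and fell by 2.01 with EC359 (adjusted p = 0.00183), or by 2.67 without EC359 replicate 2. This transcript passed the filter on low counts only through its HFD libraries, so these p-values depend on the group where it is high. HFD over HFD + EC359 gave 3.42 (3.04 to 3.85) for Meg3, 3.45 (2.82 to 4.24) for Rian, 4.14 (2.14 to 8.64) for 6430411K18Rik, and 6.63 (2.53 to 21.99) for Mirg.

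Beside Dio3, its antisense neighbor Dio3os had 4, 11, and 5 counts in LFD, 5, 18, and 10 in HFD, and 4, 8, and 5 in HFD + EC359, and the groups overlapped. Counting used the strand, and exons of Dio3 and Dio3os are 1161 bases apart in the files. Dio3os gave a log2 fold change of 0.29 (SE 0.472, adjusted p = 0.635) with HFD and -1.18 (SE 0.483, adjusted p = 0.0689) with EC359, which was called without LFD replicate 1 (adjusted p = 0.0491) or HFD replicate 1 (adjusted p = 0.0207). Rtl1, a paternally expressed gene derived from a retrotransposon, had at most 2 counts in any library.

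**Figure D2:**
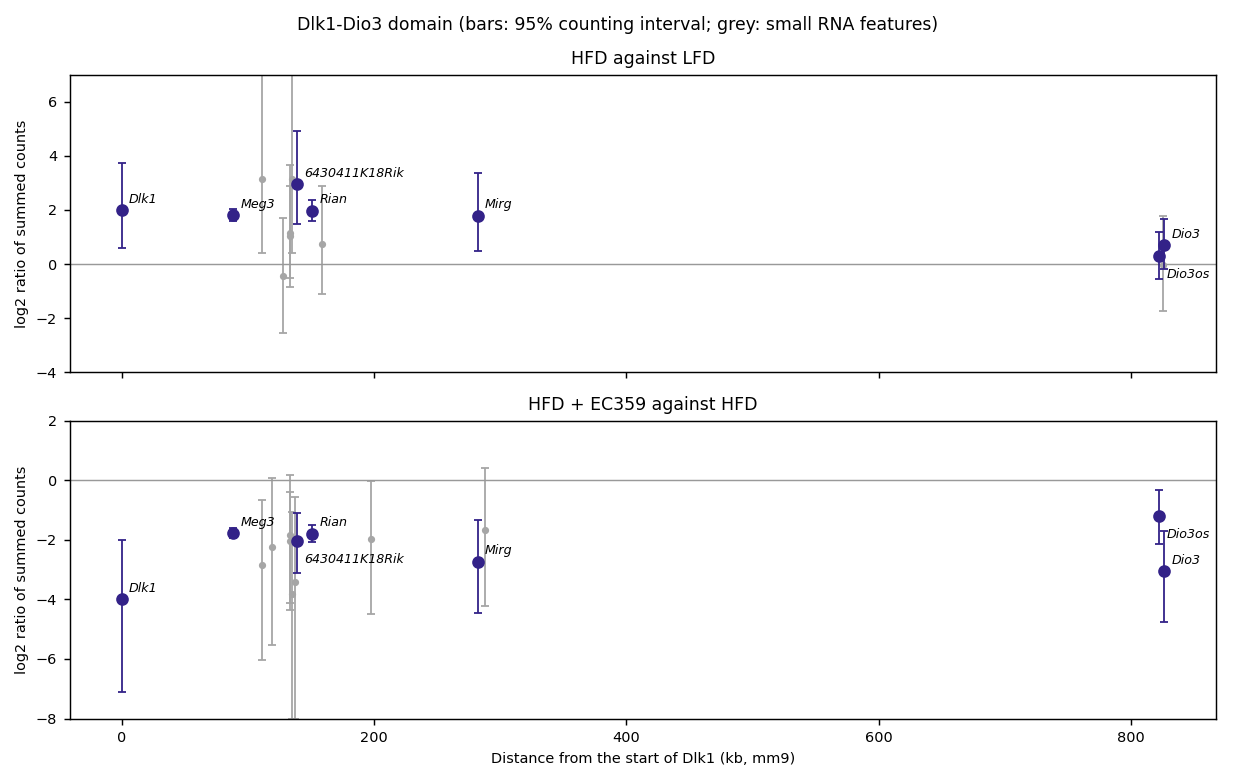
Log2 ratio of summed counts, scaled to depth, for features of the Dlk1-Dio3 domain with at least 10 counts in all, against their distance from the start of Dlk1 in kb. Bars are 95% counting intervals, cut at the edge of the panel where unbounded, and features with 0 counts in 1 of the groups are left out. In the upper panel (HFD against LFD) Dlk1, Meg3, Rian, 6430411K18Rik, and Mirg lie above 0, and in the lower panel (HFD + EC359 against HFD) all named genes lie below 0.

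Of 67 features listed in the domain, 59 were small RNA genes, and 60 of the 67 had a count in at least 1 library. The 51 small RNA positions that share no exon with another listed gene summed to 9, 13, and 14 counts in LFD, 55, 54, and 44 in HFD, and 13, 15, and 15 in HFD + EC359. HFD was above both other groups in every library. The scaled ratio was 3.14 (2.17 to 4.65) for HFD over LFD and 4.21 (2.99 to 6.05) for HFD over HFD + EC359. An mRNA library does not capture mature microRNAs, so these are fragments of longer transcripts that cross the hairpins. Mature sequences from RefSeq (GRCm38.p6) are shown for the 3 hairpins with the highest counts among those matched there and free of other exons, for miR-770 inside Meg3, and for miR-675 inside H19, with the seed (bases 2 to 8) in capitals.
miR-540-5p: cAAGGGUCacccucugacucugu
miR-540-3p: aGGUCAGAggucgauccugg
miR-337-5p: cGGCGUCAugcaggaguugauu
miR-337-3p: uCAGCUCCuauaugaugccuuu
miR-3070-5p: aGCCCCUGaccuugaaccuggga
miR-3070-3p: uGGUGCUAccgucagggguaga
miR-770-5p: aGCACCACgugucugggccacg
miR-770-3p: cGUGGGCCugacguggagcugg
miR-675-5p: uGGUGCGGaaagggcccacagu
miR-675-3p: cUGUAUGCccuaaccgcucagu
No seed was shared by any pair of these arms. The Mir540 hairpin held 2, 2, and 1 counts in LFD, 4, 5, and 5 in HFD, and 1, 3, and 0 in HFD + EC359. The Mir770 hairpin, whose reads are also Meg3 reads, held 0, 0, and 1 counts, then 6, 2, and 4, then 0, 1, and 1 in the same order. Mir675, whose reads are also H19 reads, held 7, 7, and 8 counts in LFD, 8, 10, and 12 in HFD, and 17, 15, and 20 in HFD + EC359. The fit gave it no call in any comparison (adjusted p = 0.983 with HFD, 0.252 with EC359, and 0.195 between HFD + EC359 and LFD). In CPM every EC359 library lay above every other library for Mir675, and 1 alternative run called HFD + EC359 against LFD (adjusted p = 0.0215).

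Igf2 and H19 are neighbors, and the difference between their changes was not tested. Igf2, a growth factor that signals through the IGF1 receptor, held 7.15, 7.84, and 7.57 CPM in LFD, 12.1, 10.3, and 12.8 CPM in HFD, and 8.24, 7.33, and 7.69 CPM in HFD + EC359. Every HFD library was above every other library. Igf2 rose by 0.64 on the log2 scale with HFD (SE 0.157, adjusted p = 0.00102) and fell by 0.60 with EC359 (SE 0.14, adjusted p = 0.00144). H19, the maternally expressed noncoding RNA next to it, held 16.1, 14.1, and 12.8 CPM in LFD, 14.6, 11.9, and 13.5 CPM in HFD, and 15.8, 15.7, and 13.7 CPM in HFD + EC359. These ranges overlapped in all 3 comparisons. The log2 differences of H19 were -0.10 (SE 0.134, adjusted p = 0.558) for HFD against LFD and 0.17 (SE 0.121, adjusted p = 0.339) for HFD + EC359 against HFD. Removing each library's trend with GC content turned the first of these to 0.06, still without a call.

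Cdkn1c, at the other end of the chromosome 7 domain, encodes the cyclin-dependent kinase inhibitor p57. It had 2, 6, and 1 counts in LFD, 16, 14, and 14 in HFD, and 13, 6, and 17 in HFD + EC359. HFD was above LFD in every library, and the EC359 libraries overlapped with LFD, 1 of them within the LFD range in CPM. The log2 fold change was 1.82 (SE 0.512, adjusted p = 0.00336) for HFD against LFD, or 2.68 without LFD replicate 2, and -0.53 (SE 0.366, adjusted p = 0.315) for HFD + EC359 against HFD. HFD + EC359 against LFD gave 1.29 (SE 0.54, adjusted p = 0.0395), or 2.15 without LFD replicate 2, and was not called by DESeq2 (adjusted p = 0.082). That call was also lost when LFD replicate 1 (adjusted p = 0.0931) or 3 (adjusted p = 0.192) was left out, and when replicate 1 (adjusted p = 0.104) or 3 (adjusted p = 0.163) of the EC359 libraries was. Cdkn1c needed its HFD libraries to pass the filter on low counts, so its p-values depend on the group where it is high.

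Plagl1 encodes a zinc finger transcription factor that restrains proliferation. It held 1.02, 1.88, and 2.29 CPM in LFD, 3.65, 4.97, and 4.76 CPM in HFD, and 0.969, 1.01, and 1.30 CPM in HFD + EC359. HFD stood apart from both groups, which overlapped each other. Plagl1 rose by 1.32 with HFD (SE 0.302, adjusted p = 0.000446) and fell by 1.99 with EC359 (SE 0.296, adjusted p = 3.12e-06), both as log2 fold changes. Among the 8 tested members no larger fall with EC359 was seen, though Meg3 lay within 1 SE of it.

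Grb10, an adaptor that dampens insulin and IGF1 receptor signaling, held 8.58, 7.68, and 12.1 CPM in LFD, 28.5, 26.4, and 21.4 CPM in HFD, and 15.5, 19.9, and 14.8 CPM in HFD + EC359. The 3 groups did not overlap, with HFD + EC359 in the middle. Its log2 fold change was 1.43 (SE 0.153, adjusted p = 2.08e-09) for HFD against LFD, -0.61 (SE 0.122, adjusted p = 0.000255) for HFD + EC359 against HFD, and 0.82 (SE 0.161, adjusted p = 5.37e-05) for HFD + EC359 against LFD.

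Mest encodes a protein of the alpha/beta hydrolase family that is known for its induction in expanding fat. It held 32.5, 35.3, and 38.6 CPM in LFD, 52.4, 50.8, and 62.6 CPM in HFD, and 51.5, 50.05, and 51.8 CPM in HFD + EC359. LFD was below all other libraries, and both HFD diet groups overlapped. Mest rose by 0.63 on the log2 scale with HFD (SE 0.087, adjusted p = 2.67e-07), and HFD + EC359 against HFD gave -0.11 (SE 0.0761, adjusted p = 0.314). It remained higher in HFD + EC359 than in LFD by 0.52 (SE 0.0862, adjusted p = 3.95e-06). Summed CPM of 10 adipocyte markers ran from 31.1 to 34.7 in LFD, 52.6 to 54.6 in HFD, and 47.4 to 53.2 in HFD + EC359. Most of the HFD sum was Fabp4 and Lpl, at 19.95 and 19.35 CPM, against 6.20 and 9.29 CPM in LFD. Of the 7 tested adipocyte markers, 3 rose, 1 fell, and 3 were not called with HFD, beside 51.8% of all tested genes called. The fall was that of Plin4, at a log2 fold change of -1.18. The part of fat cells in the values of Mest was not tested.

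Peg3, a zinc finger protein of the paternal allele, moved the other way. It held 20.2, 17.9, and 23.1 CPM in LFD, 16.2, 15.3, and 13.5 CPM in HFD, and 21.7, 21.0, and 19.1 CPM in HFD + EC359. HFD was the lowest group in every library. Peg3 fell by 0.43 on the log2 scale with HFD (SE 0.121, adjusted p = 0.00318) and rose by 0.45 with EC359 (SE 0.11, adjusted p = 0.00239). HFD + EC359 against LFD gave 0.01 (SE 0.111, adjusted p = 0.923).

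**Figure D3:**
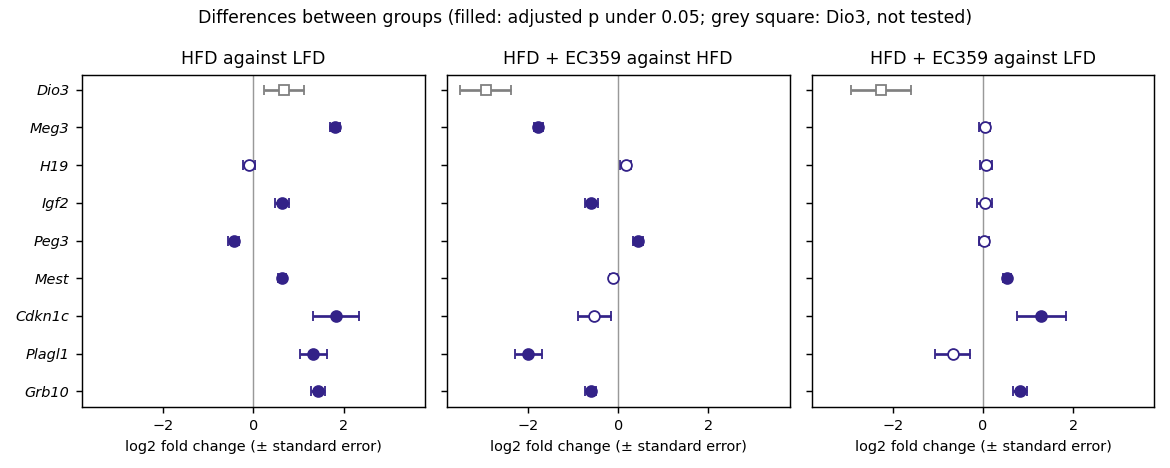
Log2 fold change ± standard error of the 9 members that passed the filter on low counts, in each of the 3 comparisons. Filled circles have an adjusted p under 0.05, open circles do not, and the grey square is Dio3, which was chosen for its values. In HFD against LFD 6 filled circles lie above 0 and Peg3 below, and in HFD + EC359 against HFD only Peg3 is filled above 0.

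Without Dio3, 6 of the 8 tested members rose and 1 fell in HFD against LFD, where 51.8% of all 13366 tested genes were called in either direction. Over these members the median log2 fold change was 0.98, beside 0.0071 over all tested genes. Cdkn1c is among the risers and needed its HFD libraries to pass the filter on low counts. The counts and the median of the members with HFD therefore depend in part on the group where Cdkn1c is high. In HFD + EC359 against HFD, 4 of 8 fell and 1 rose, beside 26.5% of all tested genes called, with medians of -0.56 and 0.0057. HFD + EC359 against LFD called 3 of 8 higher and 0 lower, beside 58.3% of all tested genes, and the remaining 5 did not pass the test. Libraries of the compared groups did not overlap for 7, 6, and 2 of the 8 members in the 3 comparisons, beside 57.1%, 41.3%, and 62.9% of all tested genes. The comparisons share libraries, so their counts are not independent of each other. At a fold change over 2 with adjusted p under 0.01, 4, 2, and 0 members were called, beside 5.69%, 3.46%, and 5.09% of all tested genes.

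Levels per kb of exon put Mest first in every group, at 13.9 ± 1.19 CPM per kb in LFD, 21.7 ± 2.53 in HFD, and 20.1 ± 0.374 in HFD + EC359 (SD, n = 3). H19 came second, at 5.49, 5.10, and 5.75 CPM per kb in the same order, and in HFD it overlapped with Grb10 at 4.93. Meg3 moved from the sixth place in LFD, at 1.06 CPM per kb, to the fourth in HFD, at 3.75, and was sixth again in HFD + EC359, at 1.09. Dlk1 was last in all groups, at 0.0603, 0.244, and 0.0153 CPM per kb. Dio3 overlapped with Plagl1 in LFD and in HFD. In HFD + EC359 it stood below Plagl1 and above Dlk1, at 0.099 CPM per kb. The plain order of the lowest genes rests on few counts.

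The 5 tested genes whose log2 CPM over the 9 libraries correlated best with Dio3 were Grrp1 (Pearson r = 0.960), Wnt5a (0.958), Col11a1 (0.955), Col24a1 (0.953), and Mrc2 (0.952). These r values describe 9 libraries in 3 groups, so they mainly follow the group means, and the genes share the libraries' depth. Wnt5a, a ligand of the noncanonical WNT pathway, averaged 13.7 CPM in LFD, 16.4 in HFD, and 10.4 in HFD + EC359. Col11a1, a fibrillar collagen chain, averaged 1.70, 2.49, and 0.529 CPM. Mrc2, an endocytic collagen receptor, averaged 44.3, 59.1, and 26.8 CPM. As for Dio3, the HFD + EC359 mean was the lowest of the 3 for each of these genes. That follows from picking them by their correlation with Dio3 and adds no support to its pattern.

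Among fibroblast markers, all 10 rose in HFD against LFD, and 6 fell and 1 rose in HFD + EC359 against HFD. With EC359 the log2 fold change was -2.09 for Col1a1 and -1.98 for Col3a1, both collagens and both called. Pdgfra, which encodes a receptor that defines fibroblasts, rose by 0.34, and Dcn, a matrix proteoglycan of fibroblasts, gave -0.12 (adjusted p = 0.221). Of 8 endothelial markers, 8 rose with HFD and 6 fell with EC359. Over all tested genes, 26.0% rose with HFD, and 13.8% fell and 12.7% rose with EC359. Defining markers of both cell types were far above 0 in every group, with Pdgfra at 322, 374, and 475 CPM and Pecam1 at 66.9, 114, and 110 CPM in LFD, HFD, and HFD + EC359. The part of fibroblast or endothelial cell number in the differences of Meg3, Rian, Dlk1, Dio3, Igf2, and Plagl1 was not tested.

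**Figure D4:**
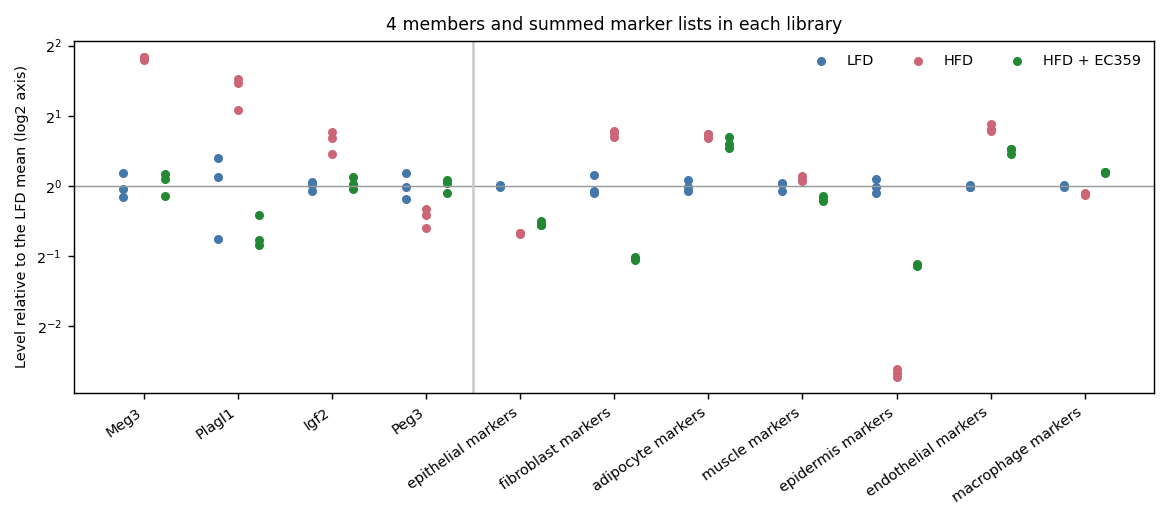
Level of 4 members and summed level of 7 marker lists in each library, relative to the LFD mean, on a log2 axis. Meg3, Plagl1, and Igf2 are above 1 in HFD, as are the fibroblast and endothelial sums, while in HFD + EC359 the fibroblast sum lies below 1 and the endothelial sum stays above it.

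Of 52 further imprinted genes written as a list, 28 passed the filter on low counts. In HFD against LFD 12 of them rose and 7 fell, with a median log2 fold change of 0.15. HFD + EC359 against HFD called 6 higher and 5 lower, with a median of 0.07, and these 11 calls became 7 without HFD replicate 1, without HFD replicate 3, or without EC359 replicate 3. Those on the paternal list were called 7 times higher and 0 times lower among 11 tested with HFD, and those on the maternal list 5 times higher and 7 times lower among 17. Over all tested genes, 26.0% were called higher and 25.8% lower with HFD, and 12.7% higher and 13.8% lower with EC359.

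Peg10, a retrotransposon-derived gene needed for the placenta, was higher in HFD than in either other group, averaging 1.05 CPM in LFD, 2.51 in HFD, and 0.59 in HFD + EC359. It rose by 1.24 with HFD (SE 0.384, adjusted p = 0.00744) and fell by 2.07 with EC359 (SE 0.385, adjusted p = 9.7e-05) on the log2 scale. Peg10 needed its HFD libraries to pass the filter on low counts, so these p-values depend on the group where it is high. The rise of Peg10 was not called without HFD replicate 1 (0.95, adjusted p = 0.0685). Its neighbor Sgce, which encodes epsilon-sarcoglycan, rose by 1.33 with HFD (SE 0.385, adjusted p = 0.00442), or by 2.07 without LFD replicate 2, and gave -0.70 with EC359 (adjusted p = 0.093). Ndn, the necdin gene, gave 0.75 with HFD (adjusted p = 0.114) and fell by 1.35 with EC359 (SE 0.384, adjusted p = 0.00815), without a call when HFD replicate 3 was left out (adjusted p = 0.0952). Without HFD replicate 1 the rise of Ndn with HFD was called (adjusted p = 0.0323). Ndn also needed its HFD libraries to pass the filter on low counts, so its p-values depend on the group where it is high.

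In the chromosome 7 domain, Kcnq1, a potassium channel gene, averaged 2.48 CPM in LFD, 5.79 in HFD, and 4.53 in HFD + EC359. Kcnq1 rose by 1.22 with HFD (SE 0.264, adjusted p = 0.000233) and gave -0.35 with EC359 (adjusted p = 0.221). Kcnq1ot1, its antisense RNA, rose by 0.36 with HFD (adjusted p = 6.39e-10) and by 0.12 with EC359 (adjusted p = 0.00714), and neither was called once the GC trend was removed (adjusted p = 0.73 and 0.602). The call of Kcnq1ot1 with EC359 was also lost without HFD replicate 1 (adjusted p = 0.0578), HFD replicate 3 (0.0653), or EC359 replicate 3 (0.0738). Tssc4 fell by 0.45 with HFD (adjusted p = 0.000353), to -0.20 without a call once the GC trend was removed (adjusted p = 0.0955), and Cd81 rose by 0.15 (adjusted p = 0.0065).

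Airn, the antisense RNA of Igf2r, rose by 0.69 with HFD (adjusted p = 0.00121) and by a further 0.48 with EC359 (adjusted p = 0.00616), the latter without a call when HFD replicate 1 was left out (adjusted p = 0.0982). Igf2r, which clears IGF2, fell by 0.14 with HFD (adjusted p = 0.000634) and rose by 0.28 with EC359 (adjusted p = 2.75e-08). Mcts2 rose by 0.64 and Impact, a regulator of translation, by 0.53 with HFD, without a call for EC359. Copg2, next to Mest, gave -0.15 with HFD (adjusted p = 0.154) and rose by 0.31 with EC359 (adjusted p = 0.00354), which was not called without EC359 replicate 3 (adjusted p = 0.06). The fall of Copg2 with HFD was called once the GC trend was removed (-0.31, adjusted p = 0.00391). Dhcr7, an enzyme of cholesterol synthesis, gave 0.07 with HFD and rose by 0.30 with EC359 (adjusted p = 0.0411), with overlapping libraries. That call of Dhcr7 was lost with DESeq2 (adjusted p = 0.132) and without HFD replicate 1 (0.2), 2 (0.0593), or 3 (0.0723) or EC359 replicate 1 (0.0842) or 3 (0.375).

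**Figure D5:**
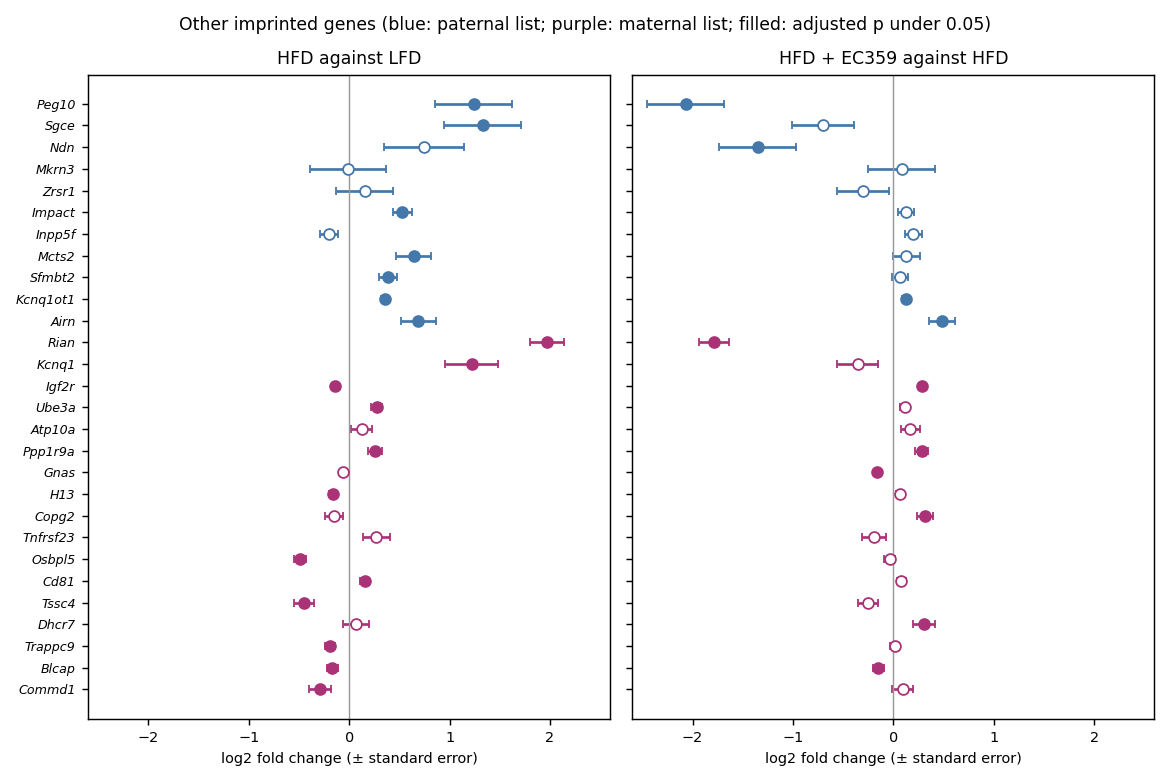
Log2 fold change ± standard error of the 28 tested imprinted genes that are not members, for HFD against LFD (left) and HFD + EC359 against HFD (right), both on the same axis. Blue marks the paternal and purple the maternal list, and filled circles have an adjusted p under 0.05. Rian, Peg10, and Sgce lie farthest to the right with HFD, and Peg10, Rian, and Ndn farthest to the left with EC359.

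In the IGF pathway, 18 of 22 listed genes were tested, of which 8 rose and 7 fell with HFD, beside 51.8% of all tested genes called in either direction, and 3 rose and 7 fell with EC359, beside 26.5%. The most abundant per kb were IGF-binding proteins, which hold IGF ligands outside the cell. Igfbp4 averaged 5459 CPM in LFD, 3453 in HFD, and 3491 in HFD + EC359, a fall of 0.66 with HFD (SE 0.0427, adjusted p = 2.13e-14) on the log2 scale. Igfbp3 rose by 0.58 with HFD and fell by 0.46 with EC359 (adjusted p = 8.48e-12 and 7.17e-10). Igfbp7 rose by 0.55 and fell by 0.88 in the same comparisons (adjusted p = 4.85e-10 and 5.08e-15).

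The receptor-binding adaptors related to Grb10 went in opposite directions. Grb14 averaged 1.38 CPM in LFD, 8.94 in HFD, and 5.46 in HFD + EC359, and it rose by 2.70 with HFD (SE 0.289, adjusted p = 2.09e-09) and fell by 0.70 with EC359 (adjusted p = 0.00545), without a call when HFD replicate 2 was left out (adjusted p = 0.0983). Grb7 averaged 2.24, 0.259, and 1.24 CPM, and it fell by 3.02 with HFD (SE 0.51, adjusted p = 8.4e-06) and rose by 2.19 with EC359 (SE 0.537, adjusted p = 0.00225). Its HFD mean lay below the level of 3 counts in the HFD libraries, 0.379 to 0.41 CPM, so both values rest on few counts. Grb7 needed its LFD libraries to pass the filter on low counts, so its p-values depend on the group where it is high.

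In the thyroid hormone pathway, on which Dio3 acts, 16 of 23 listed genes were tested, with 3 rising and 3 falling with HFD, beside 51.8% of all tested genes called, and 4 rising and 2 falling with EC359, beside 26.5%. Dio2, the deiodinase that activates thyroid hormone, averaged 74.0 CPM in LFD, 115 in HFD, and 93.2 in HFD + EC359. It rose by 0.64 with HFD (SE 0.058, adjusted p = 6.06e-11) and fell by 0.31 with EC359 (SE 0.0519, adjusted p = 2.51e-05). Dio1, another activating deiodinase, had 0 counts in all 9 libraries, which allows up to 3 counts in each. Hr, a corepressor of nuclear receptors, fell by 1.54 with HFD and rose by 0.38 with EC359 (adjusted p = 5.84e-19 and 0.000105). Among the most abundant per kb were Slc7a5, an amino acid transporter that also carries thyroid hormone, and the corepressor Ncor1. Slc7a5 fell by 0.11 with HFD (adjusted p = 0.0251), which turned to 0.06 once the GC trend was removed and was not called with library totals (adjusted p = 0.174), with all genes of at least 1 count (0.053), or without LFD replicate 3 (0.0864), HFD replicate 1 (0.0583), or HFD replicate 2 (0.0724), and rose by 0.16 with EC359 (adjusted p = 0.00296). Ncor1 rose by 0.30 with HFD (adjusted p = 8.37e-08).

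Besides Cdkn1c, 4 of 6 listed cyclin-dependent kinase inhibitors were tested, of which 1 rose and 2 fell with HFD, beside 51.8% of all tested genes called, and 0 were called with EC359, beside 26.5%. Cdkn1a, which encodes p21, fell by 0.57 with HFD (adjusted p = 1.79e-07), and Cdkn2d fell by 0.72 (adjusted p = 0.00227). Cdkn1b, which encodes p27, rose by 0.16 (adjusted p = 0.0133). That call of Cdkn1b was lost once the GC trend was removed (0.0039, adjusted p = 0.96), with DESeq2 (adjusted p = 0.0519), and without LFD replicate 3 (0.0627) or HFD replicate 2 (0.0501). Cdkn2c gave 0.17 (adjusted p = 0.071) and was called with library totals (adjusted p = 0.0254) and without LFD replicate 2 (adjusted p = 0.0304).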

How the data were processed

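Gene counts were analysed from RNA-seq of 4T1 tumors in 3 groups of 3 libraries (LFD, HFD, and HFD + EC359), grouped by the labels. The authors deposited expected counts per gene for each library, without normalization. Per the file headers they were made with featureCounts 1.5.0-p1 on mm9, strand-specific and with multi-mapped read pairs counted in fractions. The submitters' processing notes name HISAT2 2.1.0, while the methods name TopHat2 and HTSeq. In the pair examined, Snrpn and Snurf, which share exons, all 9 libraries held identical whole counts, so a read pair over both appears to have been counted whole for each.

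Counts were rounded. Genes were filtered with filterByExpr, which kept 13366 of 22609, and scaled with TMM factors in edgeR 4.0.16 (R 4.3.3, limma 3.58.1). A gene with few counts can pass this filter through its highest group alone, and its p-values then depend on that level. One quasi-likelihood fit over all 9 libraries gave the 3 comparisons, with Benjamini-Hochberg adjustment over all tested genes and a call at adjusted p under 0.05. Intervals of count ratios are exact conditional 95% intervals. At depths of 5085268 to 9750959 counts, low genes such as Dio3 are limited by counting error. Exact permutation of 3 against 3 libraries cannot go below p = 0.1 and was not used. The fit was tested on simulated data. Members and lists were chosen with earlier results of these data known. Named genes were the members, genes of their domains, the 5 called imprinted genes with the largest change in each of the first 2 comparisons, and, in each pathway list, the 3 with the highest level per kb and those with the largest rise and fall. The results of 1 gene that this rule names are not reported here. Igf2r and the markers were named after their values were seen. Alternatives were DESeq2 1.42.0, RLE factors, library totals, other filters, a stricter threshold, removal of each library's GC trend, the 6 libraries of a comparison, a replicate block, and each library left out.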

Additional observations from a re-analysis of the deposited data

How the results depend on the processing

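Of the 16 fold changes of the 8 tested members in the first 2 comparisons, 15 kept their direction and their side of the threshold in every alternative run, the exception being H19 with HFD. The counts of members called stayed at 5 to 8 with HFD, 4 to 6 with EC359, and 2 to 3 in HFD + EC359 against LFD under the other filters, tests, scalings, and samples, the last because Cdkn1c lost its call or was not tested. At a fold change over 2 with adjusted p under 0.01 they were 4, 2, and 0, where the other imprinted genes called were 4, 3, and 1 in place of 19, 11, and 17. Over all tested genes the shares were 5.69%, 3.46%, and 5.09% in place of 51.8%, 26.5%, and 58.3%. Removing the GC trend reversed uncalled or small values: H19 with HFD to 0.0616, Slc7a5 with HFD to 0.0615, Cdkn2c with HFD to -0.0186, and in HFD + EC359 against LFD Meg3 to -0.00070, Peg3 to -0.0366, Rian to -0.0841, and Copg2 to -0.0511. The cause was not tested. With 1 library left out, the log2 fold change with HFD ran from -0.2566 to 0.7428 for Dio3os and -0.1691 to 0.1726 for Mir675. In HFD + EC359 against LFD it ran from -0.0254 to 0.1426 for Meg3, -0.0044 to 0.1478 for H19, -0.0057 to 0.0739 for Igf2, and -0.0918 to 0.1153 for Peg3. The other imprinted genes called with EC359 numbered 7 to 13 with 1 library left out. Same-numbered libraries did not deviate together (r from -0.0296 to 0.0169, with 0 of 9 pairs over 0.1). These r values cannot exclude a pairing too weak to stand out from counting error. With the replicate number as a block, the members called were again 7, 5, and 3, and the other imprinted genes 19, 11, and 17, while Dio3os with EC359 was called (adjusted p = 0.0488). Depth limits Dio3, Dlk1, Mirg, and Cdkn1c, which had at most 17 counts in any library. It also limits Grb7, which averaged 0.259 CPM in HFD.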
